A study of Danio rerio with 82 samples.

Results

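The synaptonemal complex and meiotic recombination genes described here are 9 zebrafish (Danio rerio) genes chosen by symbol: sycp1, sycp2l, sycp3, smc1b, spo11, dmc1, mnd1, psmc3ip and mlh3. All 9 were found, each at 1 locus, among 28405 loci with 27564 symbols. They were followed through oocyte growth in poly(A) RNA-seq libraries of stage I, stage II, stage III and stage IV oocytes, which the labels call G1-phase, S-phase, prophase I and metaphase I oocytes. These phase names were not checked, and G1-phase and S-phase differ from the arrest of growing oocytes described below. These 4 libraries, 1 per stage, are part of 82 samples that mostly profile histone marks of gametes and embryos. All 4 came from adult females of the wild-type Tu strain, whose oocytes were sorted by hand on morphology and freed of follicle cells as far as possible, with no further treatment named. The labels do not say how many females or oocytes a library holds.

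Meiotic recombination starts with DNA double-strand breaks made by the Spo11 enzyme. The broken ends invade the homologous chromosome with the help of the recombinase Dmc1 and its partner complex of Hop2 (encoded by psmc3ip) and Mnd1, while the synaptonemal complex zips the homologues together and Mlh3 later helps to resolve crossovers. In vertebrate ovaries these events belong to early prophase I, before the main growth of the oocyte, and growing oocytes are held in a later arrest in which the complex has come apart. Whether the stage I library also holds oocytes in early prophase I was not tested.

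Levels are given in FPKM, fragments divided by transcript length and by the mapped fragments of the library, so genes can be set side by side. The authors gave each value a lower and an upper bound. A single library per stage allows neither a test nor a replicate error, so "higher" and "lower" describe these libraries alone. The bounds were turned into a number of fragments, called fragment equivalents here, whose counting error alone would give bounds of that width. They are not counts of fragments: for psmc3ip there were 9.14 of them per FPKM at stage II and 4.83 in stage IV. Among the members with a value above 0, a value had between 0.7 (smc1b, stage II) and 895.8 (sycp2l, stage I) fragment equivalents. A locus entered the comparisons, and is called tested here, when its mean over the 4 libraries reached 1 FPKM, as for 14109 loci. It was called higher or lower at a difference of at least 1 on the log2(FPKM + 1) scale, a 2-fold difference on this scale that understates changes of low genes. Of the 9 members, 7 passed this filter and 2, dmc1 and smc1b, did not.

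By role, the strand exchange partners mnd1 and psmc3ip and the synaptonemal complex gene sycp2l held the highest levels in stages I to III. In stage IV sycp3 stood at the top, spo11 came next, and sycp2l, psmc3ip and mnd1 lay in the middle of the order at 2.91 FPKM or less. The break enzyme gene spo11 and the transverse filament gene sycp1 were at moderate levels throughout, and the recombinase gene dmc1 was listed at 0 in 3 of the 4 libraries. The FPKM of the 9 genes summed to 144.5, 129.5, 122.4 and 31.1 over stages I to IV. In such bulk samples, fewer cells of a type and less RNA per cell cannot be told apart, nor can less RNA of a gene and more RNA of others. The libraries are of poly(A) RNA, so an RNA's amount and the share of it captured by its poly(A) tail cannot be told apart either.

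**Figure D1:**
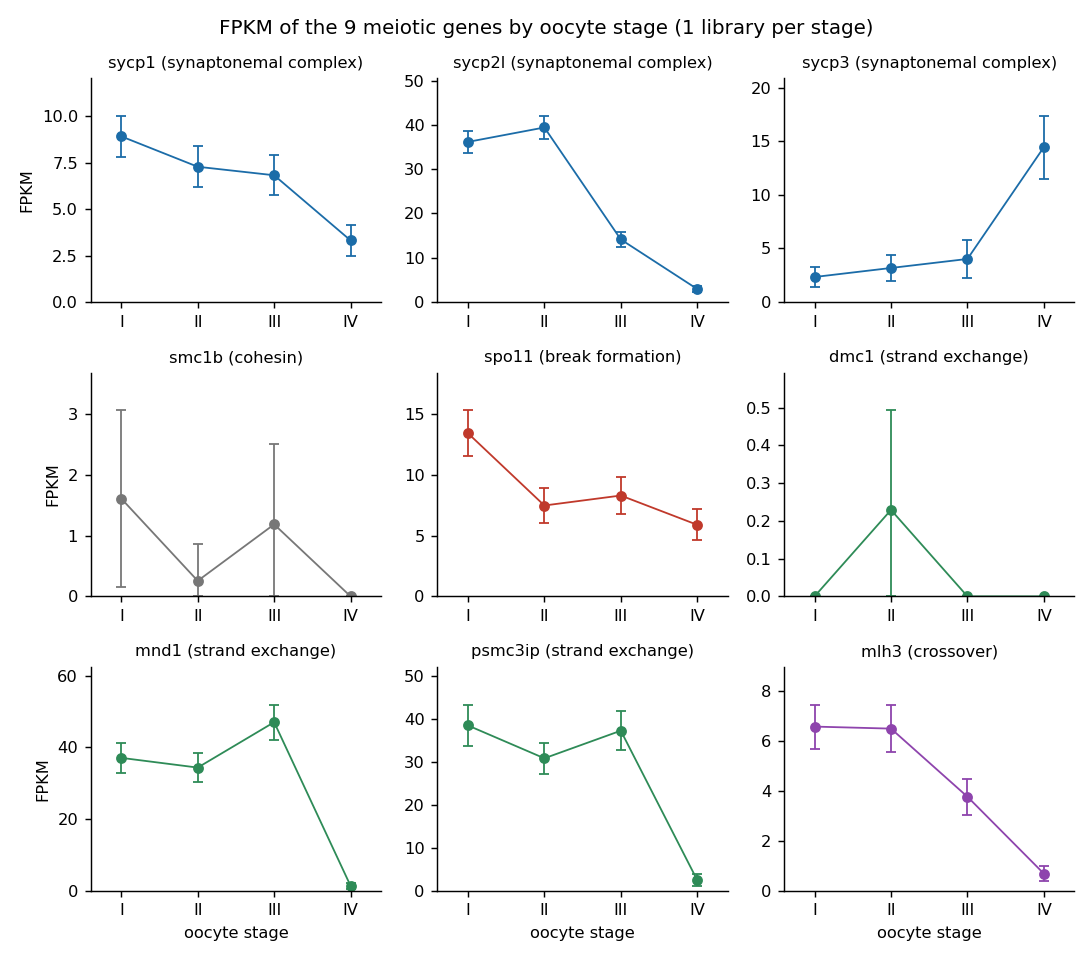
FPKM (y axis, linear, own scale per panel) of each of the 9 genes in oocytes of stages I to IV (x axis), 1 library per stage, with the authors' lower and upper bounds as bars. Levels of mnd1 stood between 34.3 and 47.0 FPKM over stages I to III and at 1.36 in stage IV, while sycp3 was highest in stage IV, at 14.4 FPKM.

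The synaptonemal complex genes did not share a pattern. The gene sycp1 (chromosome 6, 48993341 to 49001686, danRer7 build) encodes the transverse filament protein that spans the gap between paired chromosomes. It was at 8.92 (bounds 7.80 to 10.03) FPKM at stage I, 7.28 (6.19 to 8.38) at stage II, 6.82 (5.75 to 7.90) at stage III and 3.31 (2.49 to 4.14) in stage IV. Its level was lower at each successive stage, apart from stage III against stage II with median-of-ratios scaling, where it was 0.06 higher on the log2 scale. The bounds of neighbouring stages overlapped until stage IV, whose upper bound lay below the lower bounds of the other stages. The last 10 bases of its span overlap the locus si:ch211-105j21.9, which was at 2.25, 2.34 and 5.90 FPKM over stages I to III and listed at 0 in stage IV.

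The gene sycp2l (chromosome 24, 8642973 to 8657203) is a relative of the lateral element gene sycp2 and in mouse is expressed in oocytes. It was at 36.1 (bounds 33.7 to 38.6) FPKM at stage I, 39.4 (36.75 to 42.1) at stage II, 14.1 (12.5 to 15.7) at stage III and 2.91 (2.18 to 3.65) in stage IV. Stages I and II overlapped, and stage III and then stage IV each stood below the stage before with bounds apart. It was the only tested member whose stage III level was 2-fold lower than its stage II level.

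The gene sycp3 (chromosome 25, 20068120 to 20075082) encodes the main protein of the lateral element, the axis along each chromosome. It was at 2.33 (bounds 1.38 to 3.27) FPKM at stage I, 3.17 (1.95 to 4.38) at stage II, 4.01 (2.27 to 5.75) at stage III and 14.4 (11.5 to 17.4) in stage IV. The first 3 stages overlapped and stage IV lay above them all. Stages I to III had few fragment equivalents, 24.1, 27.2 and 21.3, against 96.8 in stage IV. Its neighbour actr6, whose locus begins 307 bases further on, was at 13.3, 19.0, 10.9 and 15.6 FPKM over stages I to IV, highest at stage II. The neighbour on the other side, si:ch211-59o9.10, lies 3901 bases away. It was at 85.5, 102.7, 76.8 and 110.5 FPKM, highest in stage IV like sycp3. The part of either neighbour in the sycp3 values was not tested. In the RefSeq gene table of the GRCz12tu assembly the name sycp3 is also listed as an older synonym of chpt1. The locus in the files lies on the chromosome that the table gives for sycp3 itself. A chromosome name alone does not settle which of these genes the locus holds.

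Within the trio, sycp2l held 76.3% of the summed FPKM at stage I, 79.0% at stage II, 56.6% at stage III and 14.1% in stage IV. The share of sycp3 in the same sum was 4.91%, 6.36%, 16.1% and 69.9%. The share of sycp1 stayed between 14.6% and 27.3%. These shares do not depend on how a library is scaled.

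The strand exchange partners mnd1 and psmc3ip, whose products work as a complex that helps the recombinase, both stood far lower in stage IV than before. The gene mnd1 (chromosome 1, 24035506 to 24073635) was at 37.1 (bounds 32.9 to 41.2) FPKM at stage I, 34.3 (30.2 to 38.4) at stage II, 47.0 (42.1 to 51.9) at stage III and 1.36 (0.559 to 2.17) in stage IV. Stage III was the highest, its bounds apart from those of stages I and II, and stage IV lay below all others. The gene psmc3ip (chromosome 3, 37107475 to 37130351) was at 38.4 (33.5 to 43.3), 30.8 (27.1 to 34.4), 37.2 (32.7 to 41.7) and 2.47 (1.04 to 3.91) FPKM over stages I to IV. Stages I to III overlapped one another, and stage IV stood below them. Both stage IV values have few fragment equivalents, 11.5 for mnd1 and 11.9 for psmc3ip, against 313.6 and 250.1 in stage I.

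The FPKM of mnd1 was 0.965 times that of psmc3ip at stage I, 1.12 times in stage II, 1.26 times at stage III and 0.551 times in stage IV. Their bounds overlapped in stages I, II and IV and were apart in stage III. Together they held 12.3% of the summed FPKM of the 9 members in stage IV, against 52.2% in stage I. The 54 bases at the end of the psmc3ip span overlap mlx, which was higher at each successive stage, at 15.1, 20.3, 27.2 and 38.8 FPKM. Its part in the psmc3ip values was not tested.

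The recombinase gene dmc1 (chromosome 12, 20452905 to 20458468), whose product carries out strand invasion in meiosis, was listed at 0 in stages I, III and IV. In stage II it was at 0.229 FPKM with bounds from 0 to 0.493, a value of 3.0 fragment equivalents. No stage is set apart from another by these values. The neighbouring gene gspt1, 148 bases further on, was at 3.11, 4.22, 3.92 and 0.115 FPKM over stages I to IV. In the stage I and stage III libraries, where dmc1 was listed at 0, its partners mnd1 and psmc3ip were both at 37.06 FPKM or more.

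The gene spo11 (chromosome 23, 6595266 to 6624936) encodes the topoisomerase-like enzyme that makes the breaks. It was at 13.5 (bounds 11.5 to 15.4) FPKM at stage I, 7.49 (6.06 to 8.92) at stage II, 8.31 (6.81 to 9.82) at stage III and 5.90 (4.63 to 7.17) in stage IV. Stage I stood above the other stages, which overlapped with each other. No other locus in the files overlaps it.

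The gene smc1b (chromosome 25, 16911873 to 16938289) encodes a cohesin subunit that is particular to meiosis. It was at 1.61 (bounds 0.154 to 3.07) FPKM at stage I, 0.255 (0 to 0.856) at stage II and 1.19 (0 to 2.52) in stage III, and listed at 0 in stage IV. The bounds of stages I to III overlapped. They are wide for the level, with 3.04 fragment equivalents per FPKM at stage I, against 24.8 for sycp2l and 14.8 for spo11 in the same library.

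The gene mlh3 (chromosome 23, 24876972 to 24886216) encodes a subunit of an endonuclease that resolves crossovers. It was at 6.58 (bounds 5.70 to 7.47) FPKM at stage I, 6.50 (5.56 to 7.44) at stage II, 3.77 (3.05 to 4.49) at stage III and 0.687 (0.376 to 0.998) in stage IV. Stages I and II overlapped, and stages III and IV were each lower than the stage before with bounds apart. Its locus ends 32 bases before that of kansl2, which was far more abundant and followed the same order, at 171, 138, 91.6 and 11.9 FPKM over stages I to IV. How reads between such close loci were assigned is not stated in the labels, and the part of kansl2 in the mlh3 values was not tested.

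In order of level, psmc3ip, mnd1 and sycp2l led in stage I and did not differ beyond their bounds. Then spo11, sycp1 and mlh3 followed, each apart from the next, and sycp3 overlapped smc1b. In stage II the same leading genes overlapped in turn, and spo11, sycp1 and mlh3 also overlapped in turn. In stage III mnd1, psmc3ip and sycp2l were each apart from the next in order, and spo11, sycp1, sycp3 and mlh3 overlapped in turn. In stage IV sycp3 and spo11 were first and second with bounds apart, while sycp1, sycp2l, psmc3ip, mnd1 and mlh3 overlapped in turn and mlh3 lay above dmc1 and smc1b, both listed at 0.

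The first comparison set stage IV against stage I, the outermost stages measured. Of the 7 tested members 1 was higher, sycp3, and 6 were lower. Among all 14109 tested loci 19.1% were higher and 44.4% lower by the same rule, so lower values in stage IV were common. The bounds of stage IV and stage I were apart for all 7, as they were for 27.4% of the tested loci in the higher and 53.1% in the lower direction. The median log2 difference over the 7 members was -2.17, against -0.75 over all tested loci.

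The log2 difference of stage IV against stage I was -4.01 for mnd1 and -3.50 for psmc3ip. Of all tested loci, 2.47% had a lower difference than mnd1 and 4.98% a lower one than psmc3ip. The difference of sycp2l was -3.25, with 6.78% of loci below it, and that of mlh3 -2.17, with 19.4% below it. These 4 genes lay further down than the median locus, at -3.26, -2.76, -2.50 and -1.42 from it on the log2 scale.

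The difference of sycp1 was -1.20 and that of spo11 -1.07, with 39.6% and 42.9% of tested loci below them. They lie near the median locus, -0.45 and -0.32 from it. Their calls depend on scaling: with median-of-ratios scaling the difference was -0.89 for sycp1 and -0.73 for spo11, and with FPKM scaled to the same total in each library only spo11 lost its call, at -0.93. With a pseudocount of 5 the values were -0.74 and -0.76. With stage II in place of stage I, which was tried only once the data had been seen, they were -0.94 and -0.30.

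The difference of sycp3 was 2.21, and 4.79% of tested loci had a higher one. Under every alternative that tested it the difference stayed past the rule, between 1.41 with a pseudocount of 5 and 2.58 with one of 0.1.

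**Figure D2:**
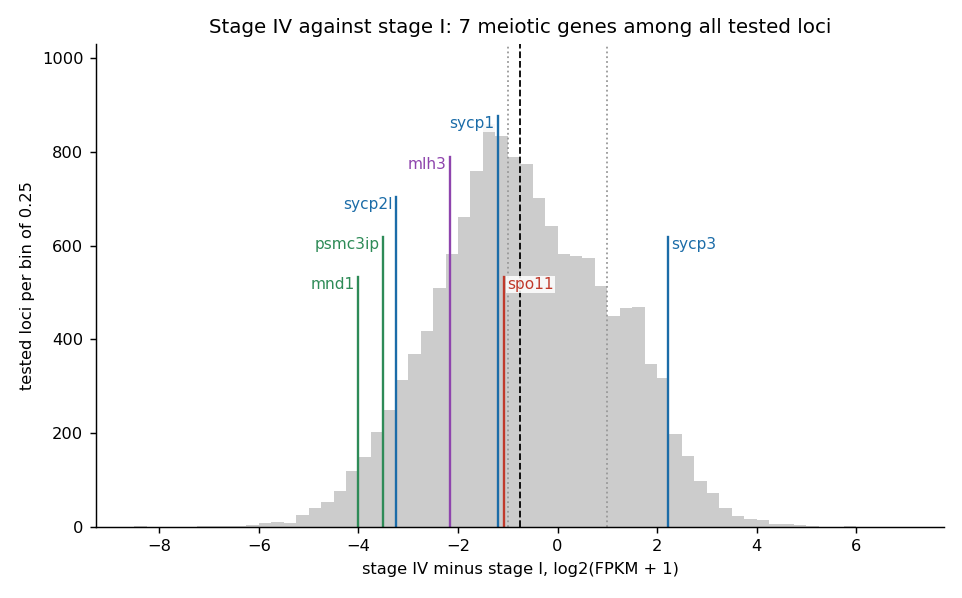
Histogram of the stage IV minus stage I difference in log2(FPKM + 1) (x axis) over the 14109 tested loci (y axis, loci per bin), with the 7 tested genes as coloured lines whose heights carry no meaning. The dashed line is the median of all loci (-0.75) and the dotted lines mark the 2-fold rule; mnd1 and psmc3ip lie in the left tail and sycp3 in the right.

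The place of a gene among the tested loci of its own library does not depend on scaling. The level of mnd1 was above that of 76.3% of tested loci at stage I, 70.0% at stage II, 80.1% at stage III and 27.0% in stage IV. For psmc3ip these shares were 77.0%, 67.2%, 75.1% and 35.9%. For sycp2l they were 75.7%, 73.5%, 51.8% and 38.4%. All 3 genes left the upper part of the range, mnd1 and psmc3ip at stage IV and sycp2l at stage III.

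The share of tested loci below sycp3 was 16.5%, 21.5%, 23.6% and 64.2% in stages I to IV. That of mlh3 was 36.3%, 33.5%, 22.3% and 19.1%. For sycp1 it was 42.4%, 35.4%, 34.8% and 40.3%, and for spo11 51.8%, 35.96%, 39.2% and 49.8%. By this measure sycp1 and spo11 held nearly the same place in stage IV as in stage I.

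**Figure D3:**
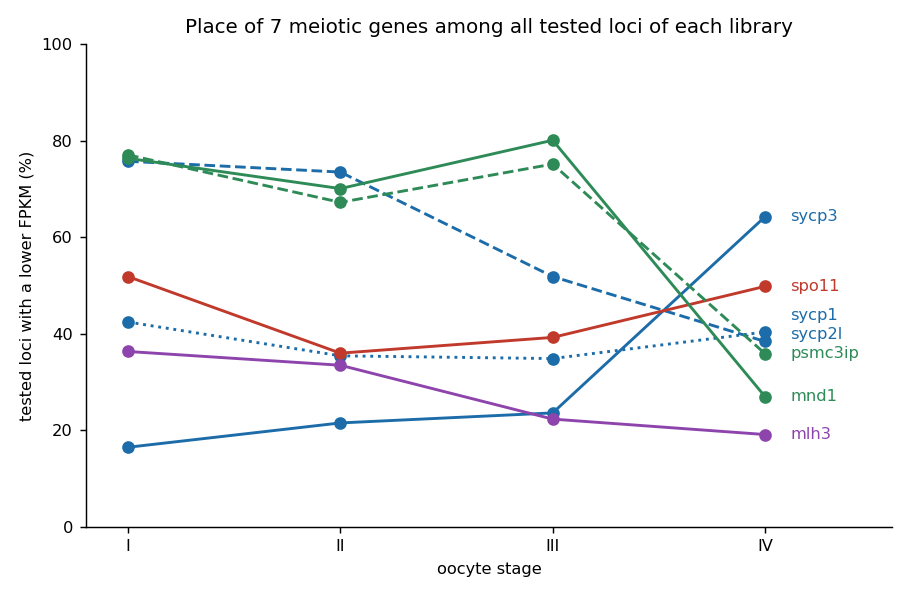
Share of the 14109 tested loci with a lower FPKM in the same library (y axis, percent) for the 7 tested genes in stages I to IV (x axis). The line of sycp3 goes up at stage IV to 64.2%, that of mnd1 goes down to 27.0%, and those of sycp1 and spo11 end near where they begin.

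Between stage II and stage I 0 of the 7 tested members were higher and 0 lower, where 2.67% of all tested loci were higher and 3.15% lower. The member furthest from 0 was spo11, at -0.77, the only member whose bounds were apart in this step. By bounds alone, 33.6% of all tested loci were higher and 10.8% lower. The others ranged from -0.31 for psmc3ip to 0.33 for sycp3. The median member difference was -0.11, against 0.20 over all tested loci. Lower loci made up 54.1% of those past the rule, 79.5% with median-of-ratios scaling and 36.6% with FPKM scaled to the same total.

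Between stage III and stage II 1 member was lower, sycp2l at -1.42, and 0 were higher. Of all tested loci 7.5% were lower and 8.67% higher, and 2.13% had a lower difference than sycp2l. Bounds were apart without a 2-fold difference for mlh3, at -0.65, and for mnd1, at 0.44, so that by bounds 2 members were lower and 1 higher, as were 31.3% and 22.6% of all tested loci. The other tested members lay between -0.08 (sycp1) and 0.27 (psmc3ip and sycp3), and the median member difference was 0.13, against -0.10 over all tested loci. Lower loci made up 46.4% of those past the rule, 30.6% with median-of-ratios scaling and 62.8% with FPKM scaled to the same total.

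Between stage IV and stage III 1 member was higher, sycp3 at 1.62, and 4 were lower: mnd1 at -4.34, psmc3ip at -3.46, sycp2l at -1.95 and mlh3 at -1.50. Of all tested loci 16.4% were higher and 46% lower. For mnd1 1.63% of loci had a lower difference, for psmc3ip 5.40%, for sycp2l 24.9% and for mlh3 34.7%. The values of sycp1 and spo11 were -0.86 and -0.43, short of the rule, and the bounds of spo11 overlapped. By bounds 5 members were lower and 1 higher, as were 54.6% and 25.7% of all tested loci. Lower loci made up 73.7% of those past the rule, and 62.9% with median-of-ratios scaling. The median member difference was -1.50, against -0.82 over all tested loci. This comparison and that of stage IV with stage I share the stage IV library.

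**Figure D4:**
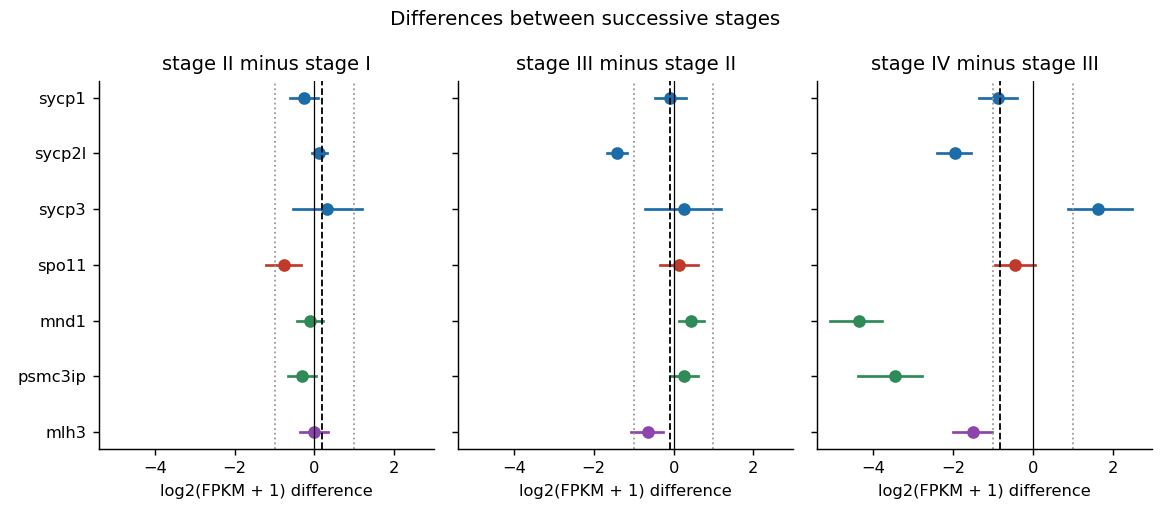
Difference in log2(FPKM + 1) between successive stages (x axis) for the 7 tested genes (y axis). Points are the differences, bars the range that the authors' bounds allow, dashed lines the median of all tested loci and dotted lines the 2-fold rule; in the last step mnd1 and psmc3ip lie at -4.34 and -3.46 and sycp3 at 1.62.

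Stepwise, sycp3 was higher at each of the 3 steps, as were 8.77% of tested loci, and sycp1 and mlh3 were lower at each, as were 8.94%. The smallest of these steps turned with scaling: mlh3 at stage II against stage I was at -0.02 and with FPKM scaled to the same total at 0.10. The largest step of mnd1, psmc3ip, sycp1, sycp2l, sycp3 and mlh3 was that to stage IV, and the largest of spo11 that to stage II.

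Likeness of pattern was measured as the root-mean-square difference between log2(FPKM + 1) profiles over the 4 libraries, each centred on its mean. It was taken among 13179 other loci with enough fragment equivalents. As a description over so few libraries, psmc3ip ranked 226th among the loci nearest to mnd1, and mnd1 554th among those nearest to psmc3ip, at a distance of 0.33. The pair of spo11 and sycp1 was at 0.25, and sycp1 ranked 202nd from spo11 and spo11 824th from sycp1. By the same measure sycp3 ranked 12373rd from mnd1 and 12386th from psmc3ip.

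The loci nearest to mnd1 were ponzr1 at 0.056, bloc1s2 at 0.084 and mrpl41 at 0.089. The first of them, ponzr1 (chromosome 7, 21501628 to 21527465), had 49.3, 49.6, 69.6 and 2.30 FPKM over the 4 stages, with its highest level at stage III and its lowest at stage IV, as for mnd1. Within a distance of 0.25 of mnd1 lay 87 loci. Nearest to psmc3ip were rpusd4 at 0.058, wdr46 at 0.061 and si:ch211-251f6.7 at 0.073, and 251 loci lay within 0.25.

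Nearest to sycp3 were smarcc1a at 0.0091, bivm at 0.013 and C18H11orf58 at 0.022. The level of smarcc1a (chromosome 16, 45194689 to 45232422) was 36.7, 46.8, 55.8 and 172.9 FPKM over stages I to IV. Within 0.25 of sycp3 lay 605 loci, 4.59% of those compared. Nearest to sycp2l were SLC35A3 (2 of 2) at 0.0070, zgc:110249 at 0.019 and arih2 at 0.023. For mlh3 they were leprel4, tmem70 and hcar1-4, for sycp1 CRFA31.2, eri1 and TSC22D4, and for spo11 seph, hoxc11a and cyb561d2. Loci within 0.25 numbered 135 for sycp2l, 728 for mlh3, 824 for sycp1 and 202 for spo11.

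Around the 9 members stand other genes of meiotic chromosomes and DNA repair, given as 6 lists. The lists held 78 further genes in the files, of which 69 passed the filter. In stage IV against stage I, 23 of these were higher, 23 lower and 23 in between, or 33.3% each, with a median difference of -0.12, which was above 0 with both other scalings. Over all tested loci the shares were 19.1% and 44.4% and the median -0.75. Many of these genes also act in mitotic cells, and the lists were not tested as sets.

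**Figure D5:**
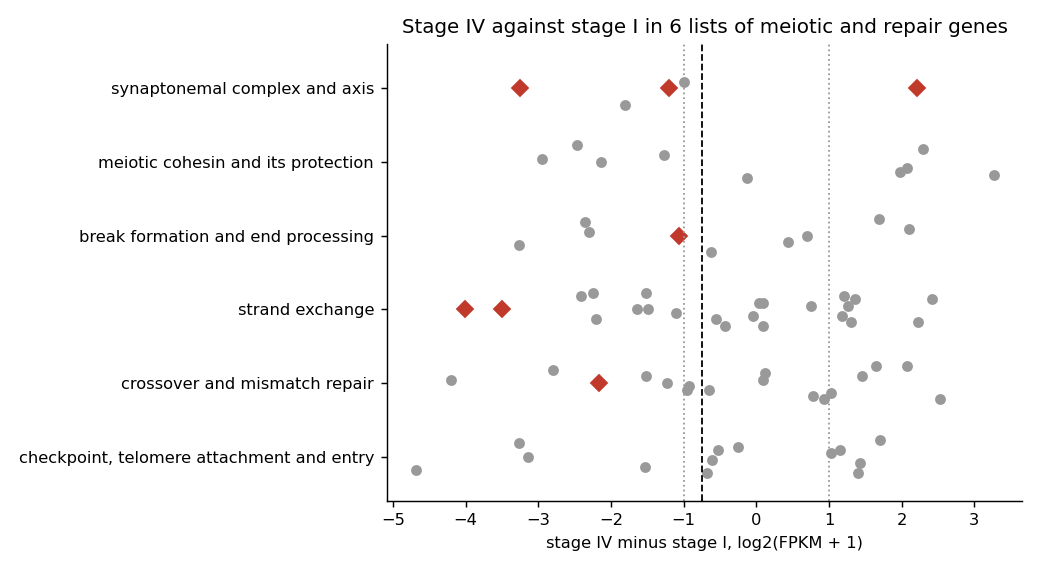
Stage IV minus stage I difference in log2(FPKM + 1) (x axis) for the tested genes of 6 lists (y axis; vertical scatter within a list carries no meaning). Diamonds are the 7 tested members and grey circles the other genes; the dashed line is the median of all tested loci (-0.75) and dotted lines the 2-fold rule.

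Among the other synaptonemal complex genes, syce2 encodes a protein of the central element. Its level was lower in stage IV, at 2.54 (bounds 1.40 to 3.67) FPKM against 11.4 (9.14 to 13.7) in stage I. The lateral element gene sycp2 was at 0.503 (0.0154 to 0.991) FPKM in stage IV and 2.00 (1.15 to 2.85) at stage I, just short of the rule. The axis gene hormad1 was under the filter, with 0.271 FPKM in stage IV and 0.493 in stage I. Some genes carry symbols in capitals, and a match that ignores case was tried once the data had been seen. By it SYCE3, another central element gene, was at 69.4 FPKM in stage IV and 32.8 at stage I, higher like sycp3.

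Of 9 tested cohesin and cohesin-regulating genes 4 were higher and 4 lower, or 44.4% each, against 19.1% and 44.4% of all tested loci. The shared core subunit gene smc3 was at 205 FPKM in stage IV against 20.5 at stage I, and the regulators pds5b and mau2 were at 136 and 231 FPKM in stage IV against 27.0 and 54.3 in stage I. The meiotic kleisin gene rad21l1 was lower, at 2.65 (bounds 1.11 to 4.19) FPKM in stage IV against 15.1 (12.5 to 17.7) in stage I. The cohesin-regulating genes nipblb and nipbla were also lower, with log2 differences of -2.96 and -2.46. Both genes of the kleisin Rec8, rec8a and rec8b, were under the filter. By the match ignoring case, STAG3, a meiotic cohesin subunit, was at 0.293 FPKM in stage IV against 17.1 at stage I, and the cohesin protector SGOL1 at 73.9 against 14.1.

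Of 8 tested genes of break formation and end processing, 2 were higher (25%) and 3 lower (37.5%), near the 19.1% and 44.4% of all tested loci. The higher ones were the nuclease genes exo1, at 114 FPKM in stage IV against 25.8 at stage I, and mre11a, at 50.7 against 15.1. The genes of the partners of Mre11 in end processing, rad50 and nbn, were lower, with log2 differences of -2.36 and -2.30, as was prdm9, the histone methyltransferase that in mammals places the breaks, at -3.27.

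Of 21 tested strand exchange genes other than the members, 7 were higher and 7 lower, or 33.3% each, against 19.1% and 44.4% of all tested loci. The recombinase relatives xrcc3 and rad51b were at 122 and 34.2 FPKM in stage IV against 22.0 and 12.7 at stage I, and rad51ap1, which assists strand invasion, was at 93.0 against 19.0. On the other side were palb2, which recruits the recombinase loader Brca2, rad54l and rpa2, with differences of -2.42, -2.24 and -2.20. By the match ignoring case, XRCC2, another recombinase relative, lay further down, at 1.15 (bounds 0.407 to 1.89) FPKM in stage IV against 31.8 (27.8 to 35.8) at stage I, a difference of -3.93.

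Of 16 tested crossover and mismatch repair genes besides mlh3, 5 were higher (31.25%) and 4 lower (25%), against 19.1% and 44.4% of all tested loci. The mismatch repair gene pms2 was at 70.7 FPKM in stage IV against 11.4 at stage I, fancd2 at 49.1 against 10.9 and the topoisomerase gene top3a at 36.3 against 10.9. Lower ones were top3b and rmi1, at -4.20 and -1.52, and by the match ignoring case GEN1, the gene of a junction-resolving nuclease, at -2.95.

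Of 13 tested genes of the checkpoint, telomere attachment and meiotic entry, 5 were higher (38.5%) and 4 lower (30.8%). Over all tested loci these shares were 19.1% and 44.4%. The kinase gene chek1 was at 95.2 FPKM in stage IV against 28.6 at stage I, cdk2 at 182 against 66.7 and topbp1 at 46.8 against 17.1. The lower ones named by rule were spdya, an activator of Cdk2, at 1.78 against 70.7 FPKM, the checkpoint clamp loader gene rad17 and the clamp gene rad9a, the last pair at log2 differences of -3.26 and -3.15.

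Of the 78 further list genes 69 passed the filter, as did 14109 of all 28405 loci. The 9 list genes under it were hormad1, rec8a, rec8b, ankrd31, meiob, hfm1, msh4, fancm and rad9b. Most of them, like dmc1, are known for roles in meiosis, but so are rad21l1, prdm9 and syce2, which passed it.

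Markers of the oocyte and of other cells were followed in the same libraries. Of 11 oocyte markers in the files 10 were at 1 FPKM or more in every library, and figla was listed at 0 in all 4. Their summed FPKM was 4872, 3767, 3180 and 1404 over stages I to IV. Summed FPKM of 8 stroma and muscle markers was 254.6, 83.4, 280.5 and 3.53 in stages I to IV, of 9 blood and immune markers 115.9, 71.8, 138.9 and 6.18, and of 12 follicle markers 388, 299, 558 and 206. In stage IV, 7 of 8, 6 of 9 and 10 of 12 of these markers were under 1 FPKM, and foxl2, fshr, lhcgr, star, alas2 and mpeg1 were listed at 0. Nearly all of the follicle sum in stage IV came from cyp11a1, at 170.5 FPKM against 224.0 in stage I, and cyp17a1, at 33.8 against 74.7. Like the stroma, blood and follicle sums, values of mnd1, psmc3ip, spo11 and smc1b were lower in stage II than in stages I and III and lowest in stage IV. The share of all tested loci with this path was not computed, so how ordinary it is cannot be said. Among the oocyte markers only buc had this path, at 749.3, 600.9, 727.7 and 118.4 FPKM over stages I to IV. Of the follicle markers inha, lhcgr, star and wt1a had it, and amh, cyp11a1, cyp17a1, cyp19a1a, foxl2, fshr, gsdf and hsd3b1 did not. All stroma and muscle markers but pdgfra had it, as did all blood and immune markers but mpx and spi1b. The part of other cells or of the oocyte in the values of mnd1, psmc3ip, spo11 and smc1b was not tested. Around stage II, bounds overlapped between stages I and II for mnd1, psmc3ip and smc1b and between stages II and III for psmc3ip, spo11 and smc1b. With FPKM scaled to the same total the direction turned for mnd1 in stage II against stage I, at 0.015, and for spo11 in stage III against stage II, at -0.032. Levels of sycp2l, mlh3 and sycp3 at stage II were close to or above those at stage I, and sycp1 was lower than at stage I in each later stage. In stage IV sycp3 was highest, and sycp1, sycp2l and mlh3 were lowest. The part of other cells in these values was not tested either. The 5 early germ cell markers in the files summed to 106.1, 105.8, 41.6 and 40.6 FPKM, with id4 listed at 0 in all 4 libraries. Most of this sum came from nanos3, at 66.4, 65.1, 18.7 and 25.8 FPKM, and piwil2, at 37.9, 39.3, 22.4 and 9.40. The level of dmrt1 was highest in stage IV, at 5.01 FPKM, and rec8a was above 0 only there. Like the sum, sycp2l, mlh3 and sycp1 were lower in stages III and IV than in stages I and II. So were the oocyte markers gdf9, lhx8a, nobox, zar1, zp2.2 and zp3b, but not bmp15, buc, dazl, kpna7 or figla. The share of all tested loci with this order of stages was not computed either. For sycp1 the bounds of stage III overlapped those of stages I and II, while for sycp2l and mlh3 they were apart. The part of early germ cells or of the oocyte in the sycp2l, mlh3 and sycp1 values was not tested.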

How the data were processed

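For 1 library of each of 4 oocyte stages, the deposited tables give FPKM per locus and, per the file headers, a lower and an upper confidence bound of it. Tools in the submitters' processing notes are Bismark, Bowtie2 2.2.2, STAR 2.5.3a and Trim Galore, and the build is danRer7; no roles are stated. Which program made the FPKM values, and whether it used strand, was not found in these sources. Files were joined on symbol and locus. Starts were read as counting from 0 and raised by 1, because among 13 mitochondrial protein genes 10 then span whole codons and without it 0 do. A value's fragment equivalents n follow from its bounds, which lie 2 FPKM/√n from it; their sums, at least 6201820 per library, are a rough guide to depth, and no read counts were used.

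Differences used log2(FPKM + 1) among loci that averaged 1 FPKM or more, computed with Python 3.11.15, numpy 2.4.6 and pandas 2.3.3 and checked on simulated data. A list symbol at several loci was taken at the locus with the highest mean. Named beyond the members were, per list, up to 3 genes furthest in each direction past the rule with bounds apart, and the 3 loci nearest in pattern to each member among those with at least 20 equivalents in some library. The alternatives are in the closing section. Members and lists were chosen with earlier results of these data known. Sequences and chromatin files were not used here, and some list genes are not reported here.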

Additional observations from a re-analysis of the deposited data

How the results depend on the processing

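Counts of members past the rule and the median member difference were recomputed with other pseudocounts, filters, scalings and call rules. In stage IV against stage I, 6 members were lower as reported, 4 with a pseudocount of 5, with median-of-ratios scaling, at a 4-fold call and against stage II (tried once the data had been seen), 5 with TPM scaling (FPKM scaled to 1000000 per library), 7 with no filter, and 3 of 3 with a mean of at least 10 FPKM. With that last filter 0 were higher, here and in stage IV against stage III, since sycp3 has a mean under 10 FPKM. Among all 14109 tested loci, 6260 were lower as reported, 3873 with a pseudocount of 5, 5487 with median-of-ratios scaling and 6152 with TPM scaling. With no filter 6652 of 22958 loci were lower, and with a mean of at least 10 FPKM 3368 of 8023. Shares of all loci at a 4-fold call, and against stage II, were not computed. The median of -2.17 was -3.09 and -1.03 with pseudocounts of 0.1 and 5, -1.38 with no filter and -3.50 with a mean of at least 10 FPKM. In stage IV against stage III the median of -1.50 was -2.24 and -0.63 with those pseudocounts and -3.46 with that mean, and a 4-fold call left 0 higher and 2 lower. In stage III against stage II a 4-fold call left 0 lower and TPM scaling turned the median to -0.032. In stage II against stage I the same scaling turned it to 0.015, and with no filter 1 member, smc1b, was lower, as were 560 of 22958 loci. With TPM scaling the median of all tested loci was -0.27 in stage III against stage II and 0.32 in stage II against stage I. For the 69 other listed genes the median of -0.12 was 0.41 with a mean of at least 10 FPKM, 0.24 with median-of-ratios scaling and 0.047 with TPM scaling, and a 4-fold call left 8 higher and 14 lower. Median-of-ratios scaling moved the median of all tested loci in stage IV against stage I to -0.48, against -0.75 as reported, and the share of lower among called loci to 61.6%, against 70.0%. No paired analysis was possible because each stage has 1 library, and no replicate could be left out. Few fragment equivalents limit mnd1 and psmc3ip in stage IV, mlh3 in stage IV (19.5 equivalents), and dmc1 and smc1b in all libraries. They also limit sycp3 in stages I to III (24.1, 27.2 and 21.3 equivalents).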
